A study of Homo sapiens with 51 samples.

Results

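The comparison described here sets H1 human embryonic stem cells given BMP4 alone at 50 ng/mL for 48 h against untreated H1 cells. Its members were chosen by the labels of the count table and come to 6 of 51 libraries, 3 treated and 3 untreated. H1 is an established line of human pluripotent cells, and every library came from it. The treated cells had been moved to TeSR E5 medium with insulin, FGF2, the compound that the labels write as LY29004, and BMP4. The untreated cells were taken at 0 h from mTeSR1 on Matrigel, so BMP4, 48 h of time and the change of medium cannot be told apart. A condition most like the treated one, cells given Activin at 100 ng/mL with BMP4 at 10 ng/mL for 48 h in that same medium (3 libraries), is used below to show where the BMP4 profile differs. The conditions differ in BMP4 dose as well as in Activin, and these cannot be told apart either.

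BMP4 is a secreted ligand of the TGF-beta superfamily. It binds paired serine/threonine kinase receptors, which phosphorylate SMAD1, SMAD5 and SMAD9, and these enter the nucleus with SMAD4 and raise genes such as ID1 to ID4, MSX1 and MSX2 together with inhibitors of the pathway itself. In the gastrulating embryo BMP signalling patterns the posterior primitive streak and the mesoderm that leaves it, and it marks the early amnion. Human pluripotent cells given BMP4 are a common model of these fates, and how far the resulting cells are amnion, trophoblast or mesoderm is a long-standing question, which is why markers of each are given below.

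The BMP4 libraries held 25865127, 24573961 and 24529538 counts and the untreated libraries 25239425, 25151076 and 24040451. Levels are in CPM, the count of a gene relative to the library's total after trimmed mean of M values (TMM) scaling. They are not divided by gene length and are compared only within a gene. Here a called gene is one that changed at least 2-fold (1 or -1 on the log2 scale) with a p under 0.05 from edgeR's quasi-likelihood test after Benjamini-Hochberg adjustment over all genes tested. Errors after ± are standard errors (SE) of log2 fold changes or, where said, SD. Replicate 3 of the BMP4 libraries stood apart from the other two: the chi-square per degree of freedom between counts was 14.7 and 11.4 with replicates 1 and 2, against 5.12 between those, and 1.99 to 2.73 among the untreated libraries. Its mitochondrially encoded share was 1.4%, against 2.82% and 2.81% in BMP4 replicates 1 and 2 and 2.29% to 2.75% in untreated libraries. Replicate 2 of the Activin+BMP4 libraries stood apart likewise, with 13.8 and 13.1 against 3.80. Replicates carry numbers in the labels, but whether each is a culture of its own is not said there, and the spread on which the p-values rest may be technical.

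After 48 h of BMP4, 1597 genes rose and 798 fell of the 19603 tested, which together are 12.2% of them (8.15% higher, 4.07% lower). By adjusted p alone, with no fold threshold, 5276 were higher and 4525 lower. The rise was the more extreme side. At least 16-fold rises numbered 276, and falls of that size 11. Genes that rose had mostly been close to silent: their median level was 2.58 CPM in BMP4 libraries and 0.479 CPM in untreated ones, 957 of them (59.9%) lay under 1 CPM in untreated cells and 112 had no count there at all. Genes that fell had a median of 0.860 CPM in BMP4 libraries and 2.51 CPM in untreated ones, with a median log2 fold change of -1.45. The groups did not overlap for 1522 of the genes that rose and 771 of those that fell, nor for 58.3% of all genes tested. Among gene types, 12.0% of 15393 protein-coding genes and 18.3% of 972 lincRNA genes were called. Without BMP4 replicate 3 the counts were 1555 higher and 781 lower, of which, in all, 2156 were among the 2395. In bulk RNA such as this, fewer cells of a kind and less RNA in each cell cannot be told apart.

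**Figure D1:**
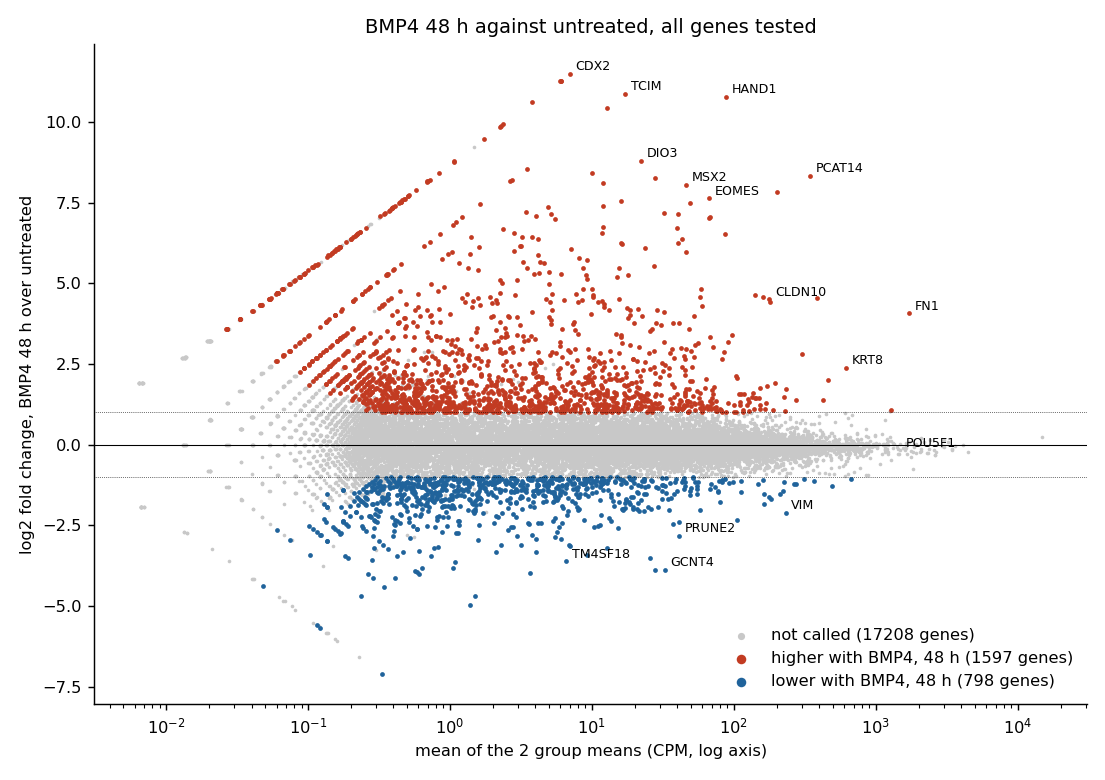
Each point is 1 of 19603 genes tested, placed by the mean of its BMP4 48 h and untreated levels (CPM, log axis) and by its log2 fold change, BMP4 48 h over untreated; red points rose (1597), blue points fell (798), grey points were not called, and dotted lines mark a 2-fold change. Points on the straight diagonal edges have 0 or few counts in a group, and their fitted fold change depends on the prior count; HAND1, PCAT14 and FN1 lie high at well-measured levels.

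The 12 largest rises named here are among genes with at least 10 CPM and no clone-type name, such as LINC followed by digits. All were in genes that averaged 2.14 CPM or less in untreated cells. HAND1 (ENSG00000113196, chr5:154474972-154478264, GRCh38), a basic helix-loop-helix factor of extraembryonic and cardiac mesoderm, had 174, 174 and 180.3 CPM with BMP4, against 0.0402, 0.161 and 0.0838 CPM untreated. Its log2 fold change was 10.78 ± 0.17 (adjusted p = 1.80e-37), with 13116 counts over the BMP4 libraries, against 7 over the untreated ones. CDX2 (chr13:27962137-27971139), a caudal homeobox factor of trophectoderm and the posterior embryo, had 13.6, 13.5 and 14.7 CPM with BMP4 and no count in any untreated library, which makes it at least 342-fold higher with a floor of 3 counts over the untreated group. The same held for WNT6, a secreted WNT ligand (at least 294-fold), and for SLC40A1, the iron exporter ferroportin (at least 295-fold). In each of these genes the BMP4 libraries lay close together, at 10.5, 12.2 and 13.2 CPM for WNT6 and 11.7, 11.6 and 12.8 CPM for SLC40A1.

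TCIM, a regulator of beta-catenin signalling, had 35.6, 35.6 and 31.9 CPM with BMP4 and a single count in the untreated group, a ratio of 2533 (95% interval 454 to 100087). EVX1, a homeobox factor of the posterior streak, had 23.8, 25.8 and 26.4 CPM with BMP4 and also 1 untreated count, a ratio of 1862 (95% interval 334 to 73574). An antisense gene overlaps it, and without a stated strand setting their reads cannot be told apart. DIO3, the enzyme that inactivates thyroid hormone, had 43.5, 46.1 and 44 CPM with BMP4, against 0.12, 0.0804 and 0.0838 CPM untreated. PCAT14, a long non-coding RNA (chr22:23536881-23547797), reached 671, 692 and 694 CPM with BMP4, against 1.85, 2.13 and 2.43 CPM untreated, a log2 fold change of 8.33 ± 0.27. TBXT, MSX1, MSX2 and DLX2 complete the 12 and are described with their families. Every BMP4 library lay above every untreated one in all 12, but this was a condition for naming them. The groups did not overlap for 58.3% of all genes tested.

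**Figure D2:**
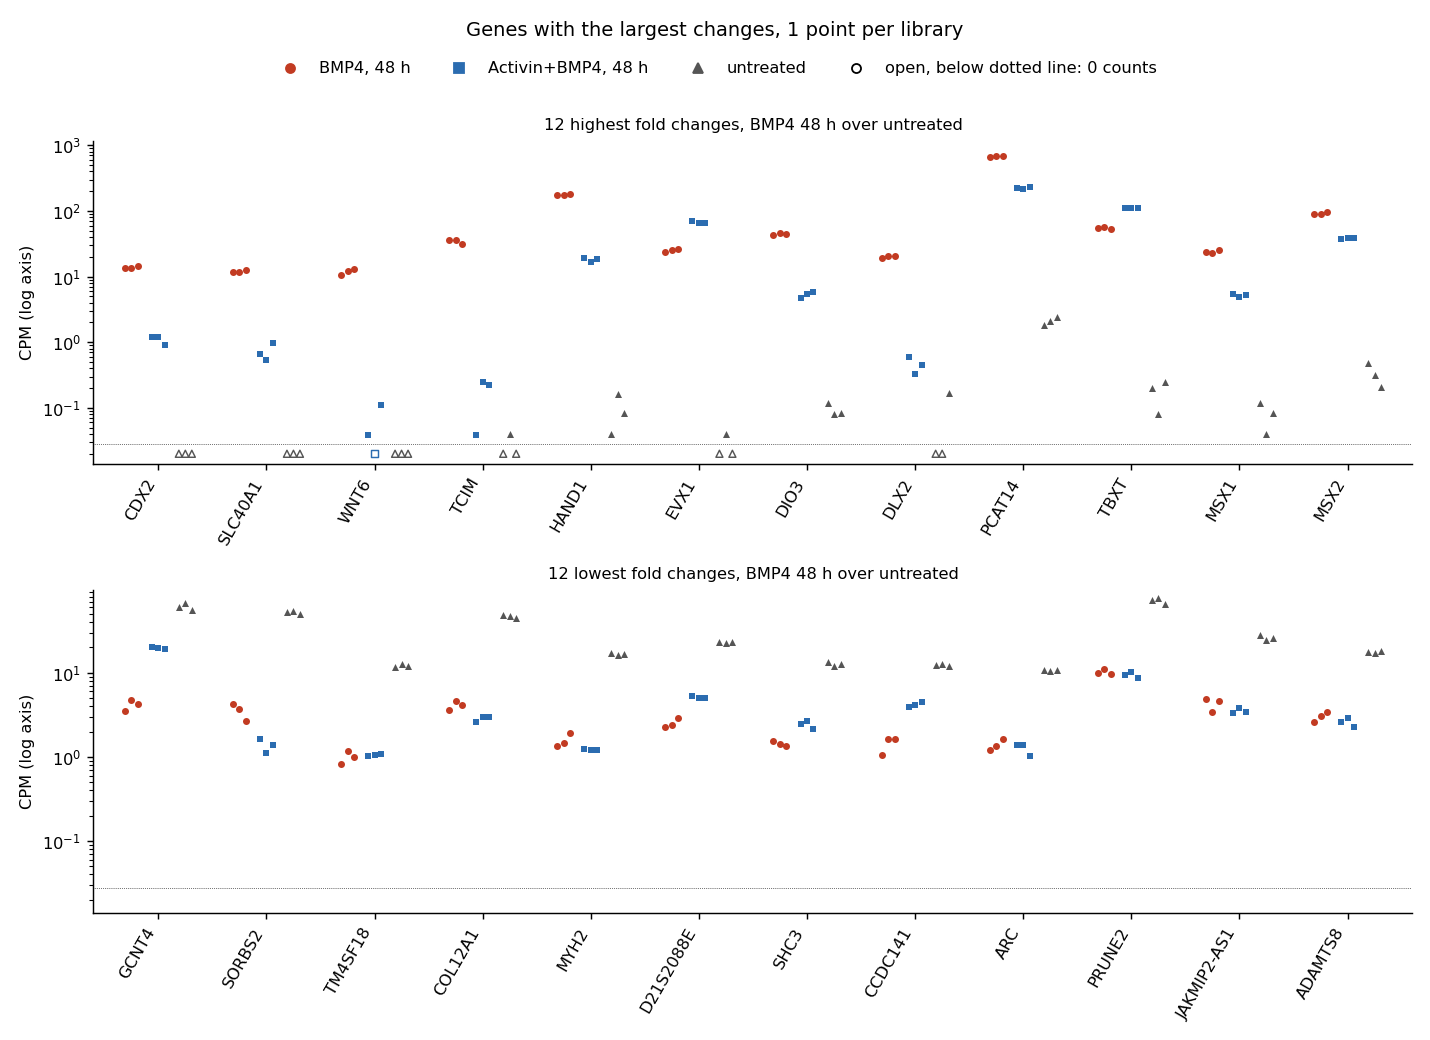
Levels (CPM, log axis) of the 12 genes with the highest and the 12 with the lowest fold change that passed the naming rule, 1 point per library: red circles BMP4 48 h, blue squares Activin+BMP4 48 h, grey triangles untreated; open symbols under the dotted line are libraries with 0 counts. The 3 libraries of a group lie close together next to the gap between BMP4 and untreated cells, while the Activin+BMP4 libraries lie on the BMP4 side in most of the lower panel and between the groups for most genes of the upper one, except EVX1 and TBXT, where they lie above both.

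Known targets of BMP signalling rose almost as a group. Of 21 listed target and feedback genes, all tested, 19 rose and none fell, with a median log2 fold change of 3.19, against 8.15% rising and a median of 0.03 over all genes tested. The members not called were the secreted antagonists GREM1 (4.15, 3.87 and 4.25 CPM with BMP4, 5.62, 4.99 and 4.06 CPM untreated) and CHRDL1 (15.8, 13.6 and 17 CPM with BMP4, 21.8, 21.8 and 20.3 CPM untreated). The ID genes, which encode inhibitors of basic helix-loop-helix factors, were already well expressed in untreated cells and rose less in fold than the silent targets. ID1 had 291, 303 and 333 CPM with BMP4, against 80.5, 81.5 and 84.9 CPM untreated, and ID3 had 175, 179 and 194 CPM with BMP4, against 70.3, 67.1 and 68.6 CPM untreated. ID2 and ID4 rose by 2.66 and 2.75 on the log2 scale. The BMP4 libraries of each ID gene lay above its untreated ones without overlap.

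Inhibitors of the pathway were among the genes that rose. BAMBI, a decoy receptor without a kinase domain, had 156, 162 and 169 CPM with BMP4, against 18.1, 17.8 and 17.6 CPM untreated (log2 fold change 3.19 ± 0.09). SMAD6, an inhibitory SMAD, had 47.3, 49.6 and 49.2 CPM with BMP4, against 3.73, 3.86 and 4.48 CPM untreated. NOG, the secreted antagonist noggin, had 9.53, 9.64 and 10.2 CPM with BMP4 and 4 counts over the untreated group (log2 fold change 7.37 ± 0.46). On the activating side, the transcript of the receptor SMAD SMAD9 rose by 4.04 on the log2 scale, and the cells' own BMP4 transcript had 86, 89.2 and 92.3 CPM with BMP4, against 6.91, 8.2 and 7.08 CPM untreated (log2 fold change 3.59 ± 0.07). The ligands BMP7 and GDF6 rose by 1.97 and 3.34. Across the 26 tested ligands, receptors and other pathway genes, however, 6 rose and none fell, against 8.15% and 4.07% of all genes tested. The median over the 26 was 0.33. Beside the genes above, those that rose were BMPR2, a type II receptor, and FST, the secreted antagonist follistatin. SMAD1, SMAD5 and SMAD4 did not pass the 2-fold rule.

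SMAD complexes can bind a GC-rich motif, and promoters of the group were searched for its palindromic form, GGCGCC, on both strands at once since it is its own reverse complement. RefSeq promoters (GRCh38.p14, 250 bases before the start) were matched for 16 of the 21 target genes, at 26 starts. The motif stood in 8 of these 26 (30.8%), against 5751 of all 35114 promoters (16.4%), and 2 or more copies stood in 5 of them (19.2%), against 3.08% of all promoters. Each start was counted by itself, and neighbouring starts of a gene can share copies. No share per gene was computed, and the difference was not tested. Of 5 matched promoters of MSX and DLX genes it stood in 1 (20.0%). A copy is a match of letters and not a binding site. The promoters shown are those of genes in the BMP target list or the MSX and DLX list that rose, have a single RefSeq start and hold at least 2 copies, which are in capitals. Both are on the plus strand, BAMBI at chr10:28677271-28677341 and DLX6 at chr7:97005303-97005547, and stop before the earliest start that GENCODE 29 gives. Another copy of BAMBI, 181 bases before its RefSeq start, begins in the last bases printed and runs past that point. It is not marked in capitals.
BAMBI: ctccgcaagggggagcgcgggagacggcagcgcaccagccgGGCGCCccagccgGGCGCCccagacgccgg
DLX6: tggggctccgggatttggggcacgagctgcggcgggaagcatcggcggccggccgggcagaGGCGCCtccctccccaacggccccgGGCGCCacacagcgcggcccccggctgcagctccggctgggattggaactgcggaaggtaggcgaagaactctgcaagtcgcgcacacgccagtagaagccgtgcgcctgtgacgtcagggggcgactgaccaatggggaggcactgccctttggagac

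Homeobox genes of the MSX and DLX families rose without exception. All 8 listed members passed the filter and rose, against 8.15% of all genes tested, with a median log2 fold change of 7.52. Their summed untreated level was 1.01 to 1.41 CPM, so a fall could hardly have been called. MSX2, a homeobox repressor that is a textbook BMP target, had 88.9, 90.7 and 95.9 CPM with BMP4, against 0.482, 0.322 and 0.21 CPM untreated (log2 fold change 8.06 ± 0.19). MSX1 had 23.5, 23 and 25.4 CPM with BMP4, against 0.12, 0.0402 and 0.0838 CPM untreated. DLX2, a distal-less factor of the branchial arches and forebrain, had 19.3, 20.3 and 20.8 CPM with BMP4, against 0, 0 and 0.168 CPM untreated. DLX6, whose promoter is shown above, had 6.47, 6.02 and 6.16 CPM with BMP4, against 0, 0.201 and 0.0419 CPM untreated (log2 fold change 6.17 ± 0.35), though its reads cannot be told apart from those of its antisense partner. DLX4 had the smallest rise of the family, 2.37 ± 0.36 on the log2 scale. The families separated the 48 h conditions as well. Set directly against Activin+BMP4, where 9.25% of all genes were called (4.86% higher, 4.39% lower), all 8 were higher with BMP4 alone. DLX2 differed most, with 0.59, 0.332 and 0.45 CPM in Activin+BMP4 libraries and a log2 difference of 5.44 ± 0.21.

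Factors of surface ectoderm and extraembryonic epithelium rose too. Of 9 tested TFAP2, grainyhead and OVOL genes, 6 rose, against 8.15% of all genes tested, with a median of 2.63. TFAP2A, an AP-2 factor of ectoderm and amnion, had 91.5, 89.3 and 92.6 CPM with BMP4, against 0.964, 2.05 and 1.34 CPM untreated (log2 fold change 5.97 ± 0.17). TFAP2C had 56.5, 56.8 and 60.2 CPM with BMP4, against 5.18, 7.08 and 6.79 CPM untreated, and GRHL3, a grainyhead factor of epidermal barrier formation, 36.4, 37.1 and 37.2 CPM with BMP4 against 2.69, 2.57 and 2.85 CPM. TFAP2B stayed low, at 1.59, 1.22 and 1.45 CPM with BMP4 and 3 counts untreated, a ratio of 34.9 (95% interval 11.6 to 172). All 5 tested GATA zinc-finger factors rose as well, from a summed untreated level of 1.04 to 1.61 CPM. GATA3 had 78.9, 79.9 and 82.7 CPM and GATA2 31.8, 31.8 and 33.5 CPM with BMP4, against 0.321, 0.643 and 0.712 and 0.281, 0.684 and 0.335 CPM untreated, and both were higher than with Activin+BMP4 (log2 differences 1.55 ± 0.12 and 3.21 ± 0.17). GATA6 and GATA4, the endoderm and cardiac members, rose to 8.25, 9.73 and 9.13 and 1.78, 2.12 and 1.86 CPM with BMP4, against 166, 170.2 and 171 and 44.9, 44.3 and 48.7 CPM in Activin+BMP4 libraries. Antisense genes overlap TFAP2A, GATA2, GATA3 and GATA6.

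Every amnion gene on the list rose, but the list was chosen with earlier results of these data known. All 24 members were tested and 24 were called higher, against 8.15% of all genes, with a median log2 fold change of 4.35. Several, such as GATA3, HAND1 and ISL1, also count in other lists. The summed level was 2969 to 3125 CPM in BMP4 libraries, against 487 to 506 CPM in untreated ones. A large part of it was KRT8, which was not called higher than with Activin+BMP4. The 10 defining markers summed to 562 to 580 CPM with BMP4, against 19.5 to 23.4 CPM untreated. Among the 10 defining markers, ISL1, a LIM homeobox factor of amnion and cardiac progenitors, had 32.3, 30.2 and 32.6 CPM with BMP4, against 0.0402, 0.241 and 0.21 CPM untreated (log2 fold change 7.56 ± 0.21, adjusted p = 6.09e-30). IGFBP3, a secreted binder of insulin-like growth factors, had 120.2, 126 and 122 CPM with BMP4, against 12.1, 13.8 and 10.5 CPM untreated. GABRP, a GABA-A receptor subunit, had 34.7, 35 and 36.1 CPM with BMP4, against 2.29, 1.73 and 1.8 CPM untreated. VTCN1, an immune checkpoint ligand, was still low at 3.6, 2.85 and 3.02 CPM with BMP4, against 0.361, 0.281 and 0.461 CPM untreated. The BMP4 and untreated libraries overlapped for none of these 4 genes. All 10 defining markers were also higher than in Activin+BMP4 libraries, as were 20 of the 24 list members, against 4.86% of all genes. KRT7, a simple-epithelial keratin, is 1 of 22 genes, of all those tested, that were called higher with BMP4 and lower with Activin+BMP4 against the same untreated libraries, with 15.3, 16.9 and 16.4 CPM in BMP4 libraries, 1.3, 0.831 and 1.24 CPM in Activin+BMP4 libraries and 6.1, 4.54 and 4.32 CPM in untreated ones. In Activin+BMP4 against untreated cells 9.24% of all genes rose and 6.56% fell.

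Genes linked to trophoblast rose in part. Of 32 listed genes only 18 passed the filter on low counts, 7 of which rose, 1 fell and 10 were not called, so that 44.4% of those tested were called, against 12.2% of all genes. The genes that rose include TP63, a p53-family factor of stratified epithelium and cytotrophoblast, with 7.98, 8.91 and 8.01 CPM with BMP4, against 0.161, 0.121 and 0 CPM untreated, PPARG, a nuclear receptor, at 10.6, 10.1 and 10.1 CPM with BMP4, against 0, 0.121 and 0.0838 CPM untreated, and VGLL1, a TEAD cofactor, at 1.78, 1.83 and 2.77 CPM with BMP4 and no count in any untreated or Activin+BMP4 library (at least 52-fold higher than untreated). Several other defining markers of trophoblast were at or near 0 with BMP4: CGA had 6 counts over the 3 libraries, CGB5 5, GCM1 2, ELF5 2, and PSG3 and HSD3B1 none. At this depth a low level of these genes may go undetected. The markers ERVW-1 and CYP19A1 passed the filter and were not called against untreated. ERVW-1 was lower than with Activin+BMP4. HLA-G, of extravillous trophoblast, had 0.271, 0.488 and 0.248 CPM with BMP4, against 0.843, 0.603 and 0.587 CPM untreated, a fall (log2 fold change -1.01 ± 0.37) that was lost in 6 alternatives, among them those without untreated replicate 1 (-0.82), BMP4 replicate 1 (-0.87) and BMP4 replicate 3 (-0.84).

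**Figure D3:**
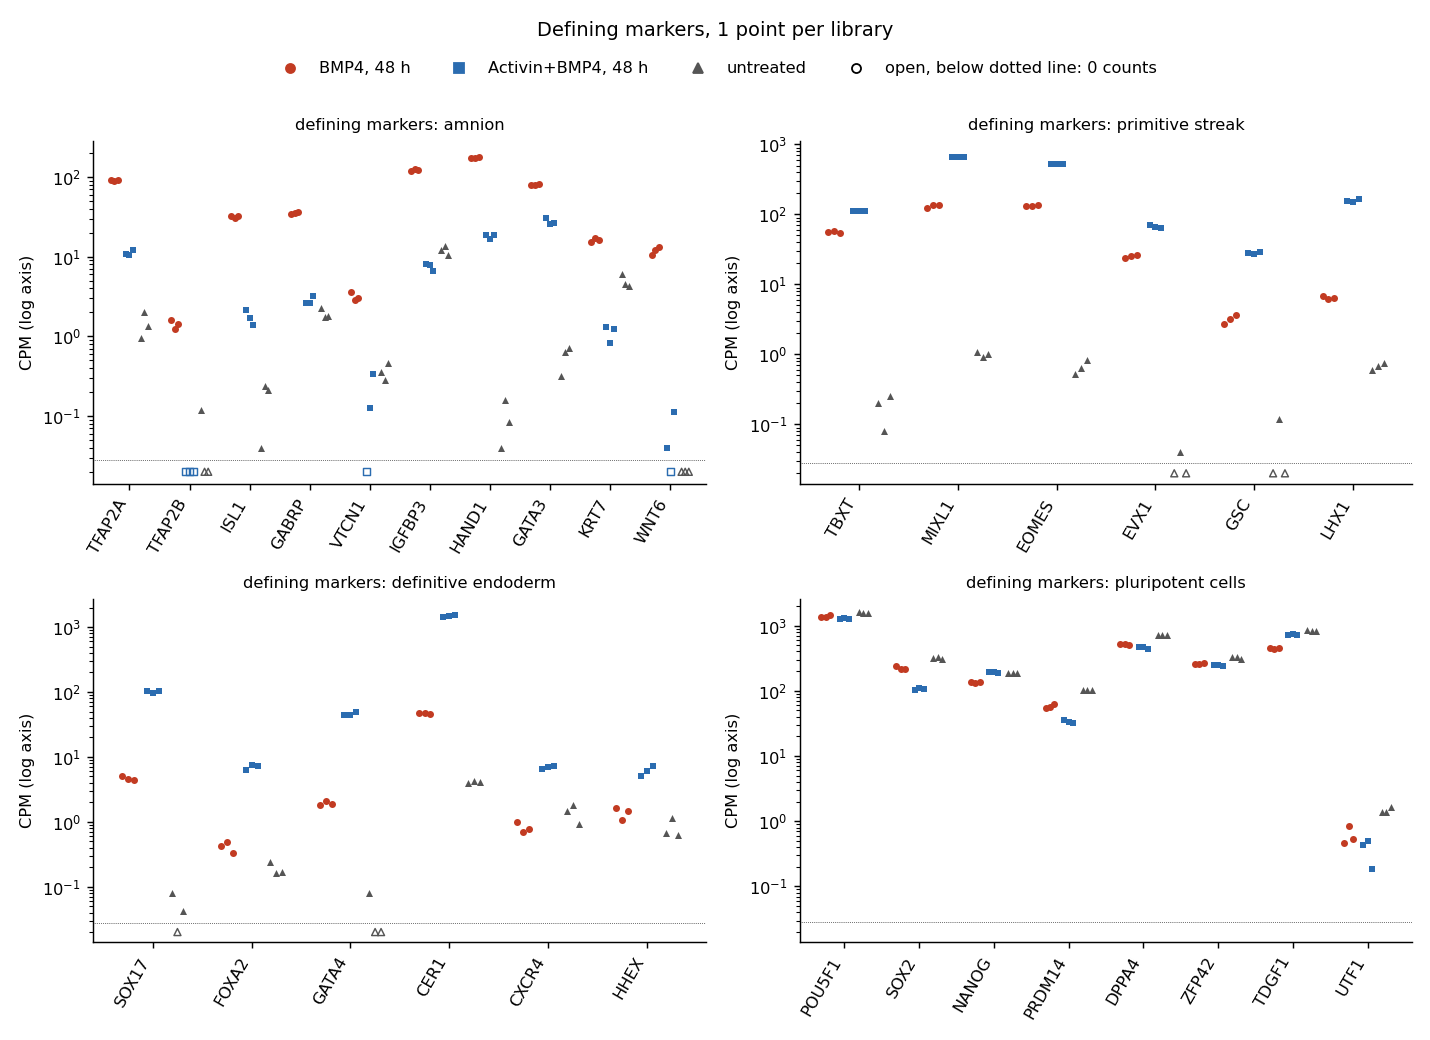
Levels (CPM, log axis) of the defining markers of amnion, primitive streak, definitive endoderm and pluripotent cells, 1 point per library: red circles BMP4 48 h, blue squares Activin+BMP4 48 h, grey triangles untreated; open symbols under the dotted line are libraries with 0 counts. Amnion markers are highest with BMP4, streak and endoderm markers are highest with Activin+BMP4, and POU5F1 stays between 1260 and 1632 CPM in all 9 libraries.

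Primitive streak genes rose with BMP4 alone. Of 22 listed genes, all tested, 18 rose and none fell, against 8.15% and 4.07% of all genes tested. Their median log2 fold change was 3.59. TBXT (chr6:166157656-166168700), the T-box factor brachyury that marks the streak and nascent mesoderm, had 55.5, 57.7 and 53.7 CPM with BMP4, against 0.201, 0.0804 and 0.251 CPM untreated (log2 fold change 8.26 ± 0.22, adjusted p = 3.08e-30). EOMES, a T-box factor of the streak and endoderm, had 131, 133 and 135 CPM with BMP4, against 0.522, 0.643 and 0.838 CPM untreated. MIXL1, a paired-like homeobox factor of mesendoderm, had 124, 136 and 137 CPM with BMP4, against 1.08, 0.925 and 1.01 CPM untreated. For all 3 genes the BMP4 libraries lay above 50 CPM and the untreated ones at about 1 CPM or lower. SP5, a WNT-responsive zinc-finger factor, rose by 7.41 on the log2 scale. GSC, the organizer homeobox factor goosecoid, had 3 counts over the untreated group and a ratio of 77.7 (95% interval 26.2 to 379). Relative to Activin+BMP4, 19 of the 22 genes were lower and none higher, against 4.39% and 4.86% of all genes tested. MIXL1 had 651, 669 and 667 CPM there (log2 difference -2.32 ± 0.06) and EOMES 527, 531 and 523 CPM (-1.99 ± 0.08). For TBXT the difference, -1.0 ± 0.09, was called but lay at the 2-fold threshold.

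Definitive endoderm genes rose in part. Of 19 tested, 8 rose and none fell, against 8.15% and 4.07% of all genes tested, with a median of 1.49. SOX17, the endoderm and germ-cell factor, reached 5.08, 4.56 and 4.46 CPM with BMP4 and 3 counts over the untreated group, a ratio of 115 (95% interval 39.2 to 563), against 103, 96.8 and 105 CPM in Activin+BMP4 libraries. CER1, a secreted NODAL and BMP antagonist, had 47.6, 48.2 and 45.8 CPM with BMP4, against 4.02, 4.3 and 4.06 CPM untreated, and Activin+BMP4 libraries had 1438, 1490.5 and 1551 CPM. FOXA2, a forkhead factor of endoderm, was not called, at 0.426, 0.488 and 0.33 CPM with BMP4 and 0.241, 0.161 and 0.168 CPM untreated (log2 fold change 1.11 ± 0.50, adjusted p = 0.0657), though DESeq2 called it (1.12). HHEX was not called either and passed the rule only without untreated replicate 2 (1.08), and CXCR4 had 1.01, 0.692 and 0.785 CPM with BMP4 and 1.49, 1.81 and 0.922 CPM untreated. All 6 defining endoderm markers were lower than with Activin+BMP4, against 4.39% of all genes tested.

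The mesoderm lists were unlike each other. Of 26 tested lateral plate and extraembryonic mesoderm genes 19 rose and 1 fell, against 8.15% and 4.07% of all genes tested. Their median was 4.31 (3.90 with the 3 genes at 0 untreated counts set to their lower bound). Beside HAND1, MSX1 and MSX2, TBX3, a T-box repressor, had 95.6, 103 and 95.8 CPM with BMP4, against 0.522, 0.603 and 0.503 CPM untreated. FOXF2 had 1.16, 1.34 and 0.95 CPM with BMP4 and no untreated count, at least 28.3-fold higher. Of 24 nascent and paraxial mesoderm genes 9 rose and 3 fell, with a median of 0.66. APLNR, the apelin receptor of early mesoderm, had 25.2, 21.3 and 23.3 CPM with BMP4, against 0.161, 0.161 and 0.419 CPM untreated, but 261, 251 and 267 CPM with Activin+BMP4. PDGFRA, a growth factor receptor of paraxial and later mesoderm, had 7.05, 5.86 and 7.35 CPM with BMP4 and 6.02, 6.79 and 6.96 CPM untreated, with no call (0.04 ± 0.16), against 63.7, 66.1 and 70.2 CPM in Activin+BMP4 libraries. TBX6 rose by 1.13 ± 0.25, a call that was lost without untreated replicate 2 (0.89), and MSGN1 had 1 count in each group. HAND2 and FOXF1 had 24 and 16 counts with BMP4 and none untreated, at least 7.9-fold and 5.26-fold higher.

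Posterior identity genes appeared at low levels. Of 39 HOX genes 23 passed the filter and 17 of them rose, against 8.15% of all genes tested. None was called lower, but the 12 with 0 untreated counts could not have been. Those 12 passed the filter through treated libraries alone. The median log2 fold change was 4.34, or 2.48 with the 12 genes at 0 untreated counts set to their bounds, and the summed HOX level was 19.8 to 21.7 CPM with BMP4, against 0.121 to 0.442 CPM untreated. HOXB6 had 7.32, 8.14 and 7.35 CPM with BMP4 and no untreated count (at least 187-fold higher), HOXB2 5.31, 4.6 and 4.38 CPM with BMP4 and no untreated count (at least 117-fold), and HOXB9 1.08, 1.59 and 1.49 CPM with BMP4 and none untreated (at least 33.9-fold). HOXC13 had 2.25, 2.28 and 2.48 CPM with BMP4, against 0.161, 0 and 0.126 CPM untreated. HOXB6, HOXB2, HOXB9 and HOXC13 overlap other HOX or antisense genes, so their reads may be shared. CDX1 rose with CDX2, at 2.83, 3.26 and 4.3 CPM with BMP4 and no untreated count (at least 84.6-fold), whereas CDX4 was not called (0.58 ± 0.16). Against Activin+BMP4, 8 of the 23 tested HOX genes were higher and 1 lower, next to 4.86% and 4.39% of all genes.

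Pluripotency genes were more often called lower than higher at 48 h. Of 30 listed genes, all tested, 6 fell and 1 rose, 23.3% against the 12.2% called among all genes (4.07% lower), with a median log2 fold change of -0.48 over the list. The remaining 23, the core factors among them, were not called. POU5F1, the core factor OCT4, had 1374, 1365 and 1436 CPM with BMP4 and 1632, 1534 and 1542 CPM untreated, a log2 difference of -0.17 ± 0.05. NANOG had 136, 129 and 134 CPM with BMP4 and 187, 189.8 and 185 CPM untreated, and SOX2 236, 213 and 219 CPM with BMP4 and 320.4, 326 and 312 CPM untreated. For NANOG and SOX2 the groups did not overlap and adjusted p was 9.39e-15 and 9.92e-07, but the changes, -0.49 ± 0.04 and -0.52 ± 0.08, lay inside the 2-fold threshold, as did those of TDGF1 (-0.89 ± 0.03), PRDM14 (-0.83 ± 0.07), DPPA4 (-0.49 ± 0.05) and ZFP42 (-0.31 ± 0.04). The members that fell were FOXD3, POLR3G, THY1, FOXD3-AS1, UTF1 and USP44. FOXD3, a forkhead factor of pluripotent cells and neural crest, had 5.77, 5.98 and 7.81 CPM with BMP4, against 22.4, 19.4 and 23 CPM untreated. POLR3G, a subunit of RNA polymerase III, had 113, 108 and 108 CPM with BMP4, against 314, 315 and 318 CPM untreated. UTF1 was at 0.465, 0.855 and 0.537 CPM with BMP4, against 1.41, 1.41 and 1.68 CPM untreated, and its call was lost without BMP4 replicate 1 (-1.10). GDF3, a ligand of the NODAL family, was the one that rose, to 30.2, 32.1 and 32.3 CPM with BMP4, against 10.3, 10.5 and 10.9 CPM untreated. Among neural ectoderm genes 3 fell and 1 rose of 15 tested: SOX3, a SOXB1 factor, had 7.09, 6.35 and 6.07 CPM with BMP4, against 27.5, 27 and 24.8 CPM untreated, while OTX2 (0.14 ± 0.11) and PAX6 (-0.22 ± 0.30) were not called.

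**Figure D4:**
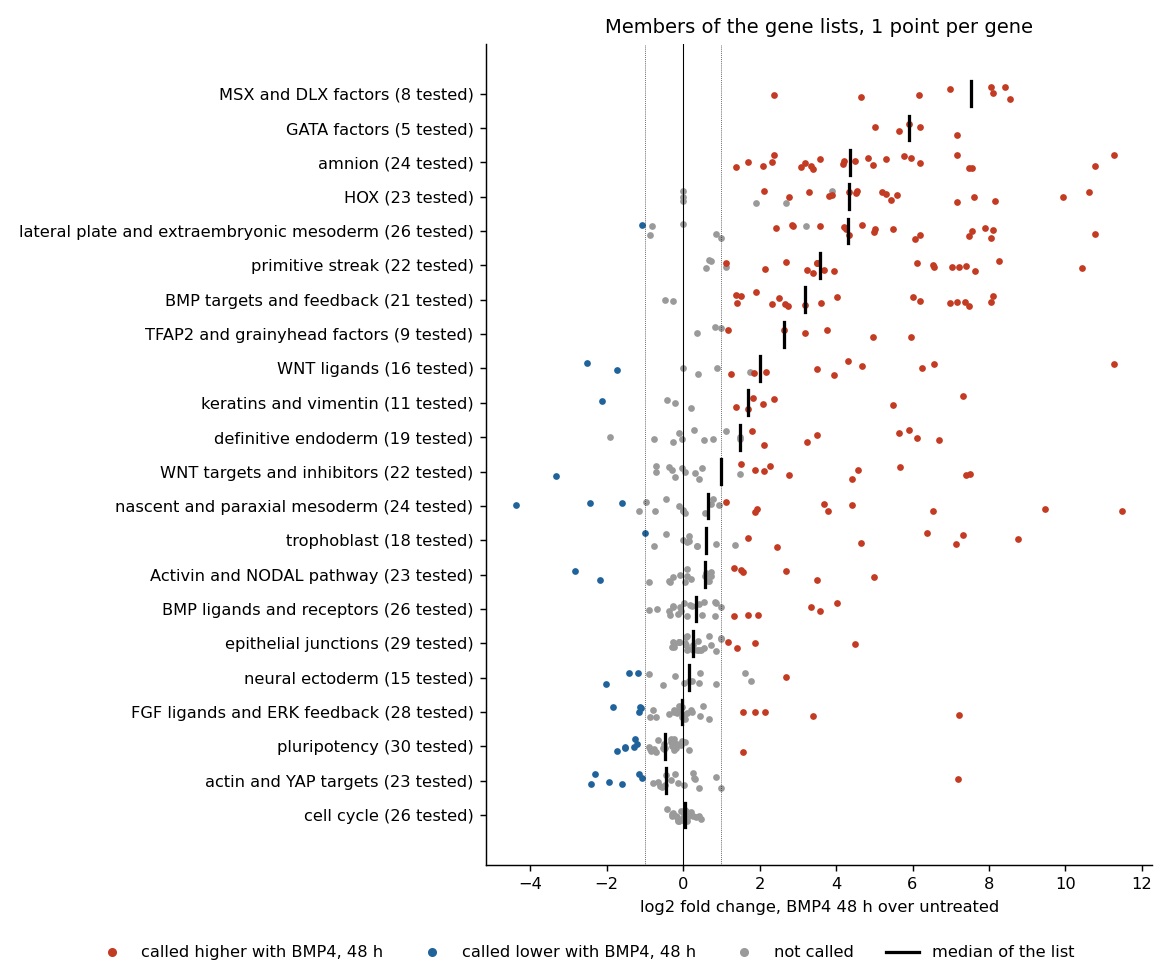
Log2 fold changes, BMP4 48 h over untreated, of the tested members of 22 gene lists, 1 point per gene: red points rose, blue points fell, grey points were not called, black bars are list medians and dotted lines mark a 2-fold change. The lists share members and were chosen with earlier results of these data known; medians run from 7.52 for the MSX and DLX factors to -0.48 for pluripotency, and cell cycle genes gather at 0.

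Among genes with at least 10 CPM and no clone-type name, the 12 largest falls were smaller than the 12 largest rises. GCNT4 (chr5:75025346-75030899), a glycosyltransferase that branches O-glycans, had 3.53, 4.8 and 4.25 CPM with BMP4, against 59.998, 67.6 and 56.2 CPM untreated (log2 fold change -3.87 ± 0.14, adjusted p = 2.95e-25). SORBS2, an adaptor of actin and cell adhesion sites, had 4.3, 3.7 and 2.69 CPM with BMP4, against 52.2, 54.2 and 50.4 CPM untreated. COL12A1, a fibril-associated collagen, had 3.64, 4.6 and 4.13 CPM with BMP4, against 48.2, 47.9 and 45.4 CPM untreated. All 3 fell more than 10-fold and the groups lay far apart. TM4SF18, a tetraspanning membrane protein, fell by 3.61 on the log2 scale, MYH2, a skeletal muscle myosin heavy chain, by 3.40, and the signalling adaptor SHC3 by 3.13. ARC, an activity-regulated neuronal gene, had 1.2, 1.34 and 1.65 CPM with BMP4, against 10.7, 10.6 and 10.7 CPM untreated, and PRUNE2 had 9.996, 11.1 and 9.75 CPM with BMP4, against 73.8, 77.3 and 65.4 CPM untreated. CCDC141, D21S2088E, ADAMTS8, a secreted metalloprotease, and JAKMIP2-AS1, an antisense RNA of JAKMIP2 whose reads may be shared with it, complete the 12, with falls of 3.10, 3.20, 2.55 and 2.59. Set against Activin+BMP4, GCNT4, CCDC141 and D21S2088E were lower with BMP4 (-2.24 ± 0.15, -1.55 ± 0.18 and -1.02 ± 0.11), SORBS2 was higher (1.36 ± 0.22), and the other 8 were not called.

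Secreted signals of other pathways rose with BMP4. Of 16 tested WNT ligands 10 rose and 2 fell, against 8.15% and 4.07% of all genes tested. Their median was 2.01 (1.8 with bounds). Beside WNT6, WNT5B had 31.2, 31 and 32.4 CPM with BMP4, against 0.321, 0.563 and 0.335 CPM untreated, WNT3, the ligand of the posterior streak, 34.4, 31.3 and 35.5 CPM with BMP4 against 1.81, 2.65 and 2.14 CPM, and WNT8A 4.8, 6.47 and 5.54 CPM with BMP4 against 0.0402, 0.0804 and 0.0419 CPM. WNT3 was lower than with Activin+BMP4 (-1.48 ± 0.08) and WNT5B higher (2.41 ± 0.11). Of 22 WNT targets and inhibitors 10 rose and 1, the secreted inhibitor WIF1, fell by 3.33, while AXIN2 was not called. RNF43, a ubiquitin ligase that removes WNT receptors, had 19.8, 22.3 and 21.3 CPM with BMP4, against 0.763, 1.37 and 0.796 CPM untreated, and the secreted antagonists NOTUM and DKK1 rose by 5.67 and 4.58.

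In the Activin and NODAL pathway 6 of 23 genes rose and 2 fell, against 8.15% and 4.07% of all genes tested. NODAL itself had 64, 65.2 and 68.7 CPM with BMP4, against 10.5, 10.5 and 9.89 CPM untreated (log2 fold change 2.68 ± 0.12), with no Activin added. Its targets LEFTY1 and LEFTY2, secreted NODAL inhibitors, were not called (0.72 ± 0.16 and 0.59 ± 0.20). INHBA, which encodes the Activin A subunit, fell, with 0.581, 0.855 and 0.785 CPM with BMP4, against 4.86, 5.39 and 5.45 CPM untreated. FGF ligands and ERK feedback genes were split, with 5 of 28 higher and 4 lower, 32.1% called against 12.2% of all genes. The ligands FGF19 and FGF16 fell by 1.14 and 1.11 on the log2 scale. The ligand FGF9 and the receptor FGFR3 rose. FGF17, FGF4 and FGF8, ligands of the streak, rose by a ratio of 167 (95% interval 56.9 to 813), by 3.41 and by 2.15 on the log2 scale. The phosphatases DUSP4 and DUSP6, which are read-outs of ERK activity, fell by 1.84 and 1.12: DUSP6 had 49.6, 50.3 and 48.2 CPM with BMP4, against 109.8, 105 and 108 CPM untreated. Other read-outs on the list, SPRY1, SPRY2, SPRY4, DUSP5, ETV4 and ETV5, were not called.

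Of 11 tested genes for intermediate filaments 7 keratins rose, and VIM, the mesenchymal filament vimentin, fell. KRT8 had 1004, 1015 and 1082 CPM with BMP4, against 204, 192 and 196 CPM untreated, and KRT19 260.1, 266 and 276 CPM with BMP4 against 77.6, 77.2 and 71.7 CPM. VIM had 91.8, 80.8 and 88.6 CPM with BMP4, against 381, 393 and 358 CPM untreated (log2 fold change -2.12 ± 0.09), and Activin+BMP4 libraries had 243, 247 and 258 CPM. KRT8 and KRT18 overlap on opposite strands. Of 29 epithelial junction genes 4 rose, 13.8%, close to the 12.2% called among all genes. CLDN10, a tight junction claudin, was the outstanding member, with 335, 331 and 354 CPM with BMP4, against 16.4, 13.1 and 15.5 CPM untreated and 15.6, 14.3 and 14.2 CPM with Activin+BMP4. DSP, the desmosomal plaque protein, had 363, 411 and 407 CPM with BMP4, against 148, 147 and 153 CPM untreated. Of 24 mesenchymal and migration genes 4 rose and 2 fell, which is 25% called, against 12.2% of all genes.

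Of 24 matrix genes 7 rose and 3 fell, against 8.15% and 4.07% of all genes tested. FN1, the matrix protein fibronectin, had 3008, 3273 and 3421 CPM with BMP4, against 194, 192 and 191 CPM untreated (log2 fold change 4.07 ± 0.13), and 706, 704 and 732 CPM with Activin+BMP4 (log2 difference 2.18 ± 0.12). FBN2, a fibrillin, had 472, 552 and 562 CPM with BMP4, against 79.5, 72.9 and 73 CPM untreated. Among laminin chains, LAMA3 fell while LAMB1 and LAMA4 rose. Of 23 actin and YAP-linked genes 6 fell (ACTA1, ACTG2, CAV1, TAGLN, CCN1 and CNN1) and 1 rose, against 4.07% and 8.15% of all genes. ACTA1, skeletal alpha-actin, had 14, 12.9 and 12.3 CPM with BMP4, against 69.4, 73.3 and 65.3 CPM untreated, and CAV1, caveolin 1, 12.9, 11.3 and 12.2 CPM with BMP4 against 46.1, 50.5 and 42.9 CPM. ANKRD1, the muscle ankyrin repeat protein that is also a YAP target, went the other way, with 61.9, 63.6 and 67.4 CPM with BMP4, against 0.442, 0.442 and 0.419 CPM untreated (log2 fold change 7.19 ± 0.42).

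Of 20 FOXO-linked genes 5 rose and 2 fell, which is 35% called, against 12.2% of all genes, with a median of 0.40. CCNG2, an atypical cyclin, had 56.9, 58.1 and 55.7 CPM with BMP4, against 11.6, 12.8 and 14 CPM untreated, and SESN3, a stress-response sestrin, 184, 191 and 173 CPM with BMP4 against 68, 77.9 and 74.7 CPM. TXNIP, the thioredoxin-interacting protein, fell to 2.09, 1.79 and 1.9 CPM with BMP4, against 9.72, 11.8 and 9.81 CPM untreated. EPAS1, the hypoxia-inducible factor 2 alpha, had 110.0, 118 and 112 CPM with BMP4, against 4.34, 3.74 and 3.81 CPM untreated (log2 fold change 4.83 ± 0.10). It was 1 of 28 glycolysis and hypoxia genes, of which 3 rose, 1 fell and 24 were not called. Of 12 iron genes 25% were called: SLC40A1 rose, HMOX1, haem oxygenase 1, fell by 2.07, CP also fell (a call lost without BMP4 replicate 2, -0.94, and without untreated replicate 3, -0.86), and TFRC, FTH1 and FTL were not called. The retinoic acid list had 4 of 18 genes higher and 1, ALDH1A3, lower (27.8% called). ALDH1A2, the enzyme that makes retinoic acid in the early embryo, had 8.1, 8.02 and 8.88 CPM with BMP4, against 0.201, 0.121 and 0.293 CPM untreated and 0.236, 0.249 and 0.075 CPM with Activin+BMP4. In the Notch pathway 3 of 18 tested genes rose and 1, HEYL, fell (22.2% called). HEY1 and HES1, targets of Notch and of BMP signalling, rose by 2.32 and 1.61, while HEY2, HES4 and NRARP were not called. No call was made among 26 cell cycle, 21 cholesterol synthesis, 14 G1 cyclin and CDK inhibitor, 15 ribosomal protein and 13 mitochondrially encoded genes, with medians between -0.13 and 0.15. For the mitochondrially encoded genes the summed level ran from 10936 to 23398 CPM in BMP4 libraries, lowest in replicate 3, against 19199 to 23113 CPM untreated.

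Of 14 tested germ cell genes 4 rose (SOX17, NANOS3, TFAP2C and PRDM1) and DPPA3 fell, 35.7% against the 12.2% called among all genes. These 5 are among the 6 defining germ cell markers, whose summed level was 65.1 to 68.2 CPM with BMP4, against 6.91 to 8.85 CPM untreated. Most of that sum was TFAP2C, which is also on the amnion list. It had 56.5 to 60.2 CPM with BMP4 and 5.18 to 7.08 CPM untreated. NANOS3 had 0.814, 0.488 and 0.248 CPM with BMP4 and a single untreated count, and PRDM1 2.25, 2.97 and 2.85 CPM with BMP4 against 0.562, 0.684 and 0.587 CPM. Among endothelial and blood markers PECAM1, TAL1 and GATA1 did not pass the filter, at 2, 6 and 0 counts over the BMP4 libraries, and KDR, a VEGF receptor that untreated cells also express, had 316, 331 and 340.4 CPM with BMP4 and 229, 222 and 238 CPM untreated, inside the 2-fold threshold. Of 13 tested genes of the endothelial and blood list 3 rose (RUNX1, SOX18 and SOX7) and 2 fell (CDH5 and ERG). CDH5, the endothelial cadherin, had 3 counts over the BMP4 libraries, against 20 over the untreated ones. RUNX1, a factor of blood and of other mesoderm, rose to 5.04, 6.02 and 5.62 CPM with BMP4, against 0.361, 0.322 and 0.377 CPM untreated. The neural crest markers SOX10, PAX7 and PAX3 were not called (PAX7 passed in 2 alternatives, with no filter on low counts and with only the groups compared), with a summed level of 2.95 to 3.22 CPM in BMP4 libraries, against 2.13 to 2.98 CPM untreated. Of 12 tested yolk sac and visceral endoderm genes 2 rose (APOA2 and CUBN) and 3 fell (AFP, APOB and VIL1). Neither rise was called without BMP4 replicate 1, untreated replicate 1 or untreated replicate 3, and 1 of the falls was called without BMP4 replicate 1. AFP, a product of yolk sac endoderm, fell to 0.93, 1.02 and 0.868 CPM with BMP4, against 6.79, 7.28 and 5.7 CPM untreated.

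The 48 h libraries are 1 of 8 times in the BMP4 series, and their neighbours show whether a gene was on its way up or past its peak. Of the 1597 genes that rose, 393 (24.6%) had their highest mean at 48 h, 629 (39.4%) at 96 h and 345 (21.6%) at 72 h. Of the 798 that fell, 239 (29.95%) were lowest at 48 h and 339 (42.5%) at 96 h. Several early genes were past their highest mean. ID1 averaged 499 CPM at 6 h and 309 CPM at 48 h, and PCAT14 1051 CPM at 24 h, 686 CPM at 48 h and 176 CPM at 72 h. TFAP2A and GATA3 averaged 19 and 30.9 CPM at 6 h and had their highest means at 48 h. CLDN10 was a transient: 25.5 CPM at 12 h, 419 CPM at 36 h, 340.2 CPM at 48 h and 22.8 CPM at 72 h.

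Within the streak list and within the amnion list, genes had their highest means at different times, and the lists overlapped in this. TBXT averaged 8.9 CPM at 36 h, 55.7 CPM at 48 h and 112 CPM at 72 h, and MIXL1 10.7, 132 and 195 CPM at those times, while with Activin+BMP4 TBXT was as high at 36 h (113 CPM) as at 48 h. GABRP averaged 1.88 CPM at 36 h, 35.3 CPM at 48 h and 525 CPM at 96 h, and HAND1 averaged 576 CPM at 96 h. ISL1, TFAP2C and WNT6 of the amnion list, NODAL, FGF4 and FGF8 of the streak list, and DLX2 had their highest means at 48 h. Several falls of 48 h did not last: VIM averaged 87.1 CPM at 48 h and 1280.1 CPM at 96 h, and COL12A1 4.12 CPM at 48 h and 100.1 CPM at 96 h, above the untreated 47.2 CPM. NANOG averaged 133 CPM at 48 h and 46.3 CPM at 96 h. These time courses are descriptions of means of 3 libraries and were not tested, and their genes were chosen after their values were seen.

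**Figure D5:**
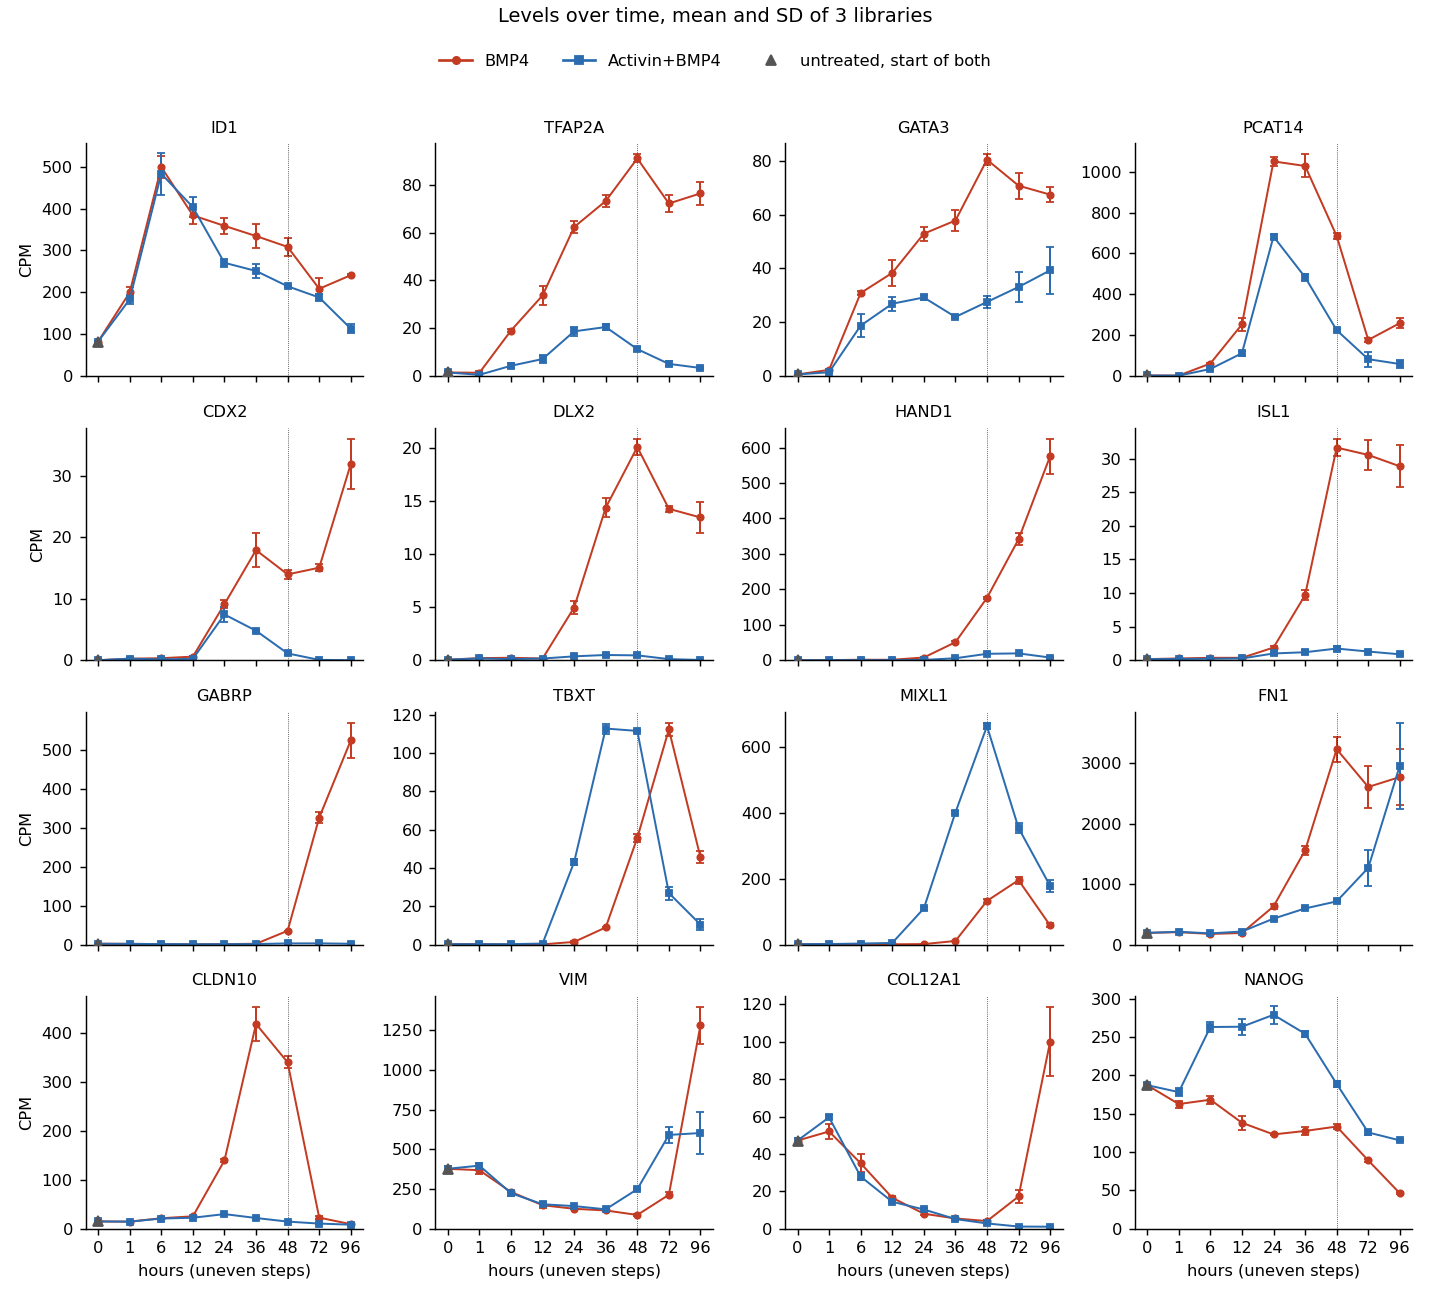
Mean levels (CPM) of 16 genes at 0 to 96 h in BMP4 (red circles) and Activin+BMP4 (blue squares), with bars of 1 SD over 3 libraries; the grey triangle is the untreated group, the start of both, and the dotted line marks 48 h. Time steps are drawn at equal distance. TFAP2A, GATA3, DLX2 and ISL1 peak at 48 h with BMP4, TBXT and MIXL1 are still rising, ID1, PCAT14 and CLDN10 are past their peaks, and VIM and COL12A1 are at their lowest.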

How the data were processed

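RNA from H1 cells was sequenced as KAPA RNA HyperPrep libraries, per the labels. The deposited values are whole-number counts per gene from the authors. The submitters' processing notes name cutadapt 1.5, STAR 2.5.2a, RSEM 1.3.0 and GRCh38, without roles. The annotation, the strand setting and whether the counts are rounded RSEM estimates are not given in the sources used here.

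All 51 libraries, in 17 groups of 3, were fitted together in edgeR 4.0.16 (R 4.3.3), with TMM scaling and a filter for a minimum count of 10, which kept 19603 genes with 99.9% of counts. Benjamini-Hochberg adjustment ran over all of them. Ratios to groups with 1 to 3 counts carry 95% intervals for counting error only.

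Genes named are the 12 highest and 12 lowest called changes whose higher group averages 10 CPM or more, with no overlap between groups, the 4 largest called changes of each list with at least 1 CPM, and defining markers. Genes with clone-type names, such as LINC, AC or AL followed by digits, were left out of the 12 highest and 12 lowest. Other list members that the text names were chosen after their values were seen. The members and lists of this comparison were chosen with earlier results of these data known. Alternatives were another scaling, other filters, DESeq2 1.42.0, only the groups compared, a replicate block and leaving out each library. The untreated, BMP4 and Activin+BMP4 groups share 1 fit, and both treatments are set against the same untreated libraries. Gene positions and overlaps are from GENCODE 29, in which BMP7, CCDC141, CLDN10, HAND2, ID2, ID4, INHBA, MYH2, POLR3G, PRUNE2, SORBS2, THY1 and VIM, among others, also overlap another gene whose reads may be shared.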

Additional observations from a re-analysis of the deposited data

Results flagged for a closer look

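Of all genes tested, 22 were called higher with BMP4 and lower with Activin+BMP4, and 18 the other way round, each against the same untreated libraries. Only members of the gene lists and the other named genes were searched for the genes given here, which are 5 of the 22. A call by edgeR in the direct test between the treatments was also a condition. All 22 and all 18 genes had that call, which opposite 2-fold calls against the same libraries make nearly certain, so it adds no support. In these 5 genes the BMP4 libraries lay above the untreated ones and the Activin+BMP4 libraries below, which follows largely from how they were chosen.

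EPAS1 had 110.0, 118 and 112 CPM in BMP4 libraries, 1.57, 1.45 and 1.39 CPM in Activin+BMP4 libraries and 4.34, 3.74 and 3.81 CPM in untreated ones, and BMP4 minus Activin+BMP4 was 6.26 ± 0.12 on the log2 scale. For H19, an imprinted long non-coding RNA, the levels were 9.76, 9.73 and 10.1 CPM in BMP4 libraries, 1.02, 1.08 and 0.825 CPM in Activin+BMP4 libraries and 2.93, 2.65 and 3.48 CPM in untreated ones, a difference between treatments of 3.34 ± 0.16. KRT7, whose levels are given above, differed by 3.84 ± 0.22. SESN3 had 29.8, 29.4 and 26.8 CPM with Activin+BMP4 and differed by 2.67 ± 0.12. SOX9, a SOX factor of cartilage and neural crest, had 20.03, 20.3 and 20.8 CPM in BMP4 libraries, 3.77, 4.2 and 3.83 CPM in Activin+BMP4 libraries and 9.32, 9.13 and 8.84 CPM in untreated ones, and differed by 2.37 ± 0.14. H19, KRT7, SESN3 and SOX9 overlap other annotated genes.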

How the results depend on the processing

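No result reversed. The stricter filter asked for 1 CPM in 3 or more libraries and also for a mean of at least 1 CPM over all 51. With it 14962 genes were tested. The calls against untreated came to 1466 (967 higher, 499 lower), 1451 of them among the 2395. Those against Activin+BMP4 came to 1116 (622 higher, 494 lower). The other alternatives stayed within 1.5 times: 2371 calls with RLE scaling, 2295 with DESeq2 and 2312 with only the groups compared. Leaving out 1 library gave 2248 to 2364 calls against untreated and 1692 to 1759 against Activin+BMP4. With the replicate number as a block there were 2378 calls, 2366 of them shared, and 1808 against Activin+BMP4; deviations of same-numbered libraries had r of -0.169 to -0.037 between BMP4 and untreated and of -0.226 to 0.214 between BMP4 and Activin+BMP4, not above 0.1 in every pair, so the numbers were not taken to pair the libraries. Of the counts of list members called in 1 direction, 36 moved by over 1.5 times under an alternative and 1108 did not. Among the 170 named genes followed through the alternatives, verdicts differed in 16 gene-and-setting pairs, of APOB, CP, FOXA2, HHEX, HLA-G, PAX7, TBX6, UTF1 and VIL1. The 170 leave out list members chosen after their values were seen, such as APOA2 and CUBN, whose lost calls are given above. A gene removed by the stricter filter had no verdict there and is not counted as a change. Genes with a few counts are limited by depth: a total of 3 counts over a group is the floor used here.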
